A study of Mus musculus with 17 samples.

Results

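The EAE libraries of both sexes were compared with the control libraries of both sexes as 1 contrast, with sex as an additive covariate, so that each gene received a single EAE effect. The genes were those on autosomes with at least 1 count in at least 9 of the 17 libraries. They numbered 20872, of 22242 genes that passed this filter and 39017 genes in the count table. The other genes past the filter lay on the sex chromosomes, the mitochondrial genome or scaffolds, or had no position in the annotation used, and were fitted but not counted.

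The libraries came from the cortex of mice on the C57BL/6 J background, 9 with EAE (5 male and 4 female) and 8 healthy controls (4 male and 4 female). EAE, experimental autoimmune encephalomyelitis, was induced with a peptide of myelin oligodendrocyte glycoprotein in complete Freund's adjuvant with Mycobacterium tuberculosis and with pertussis toxin, and was in its chronic stage. The controls were matched for age and sex, and the methods name no adjuvant or toxin for them, so effects of the immunising agents and of the disease cannot be told apart. The same genotype was used throughout, NSE-Cre:RiboTag. A Cre recombinase under a rat promoter of neuron-specific enolase, always inherited from the mother, switches on a haemagglutinin-tagged copy of the ribosomal protein Rpl22, and tagged ribosomes with their RNA are pulled down with an antibody. Unselected cortex RNA was not used here, so the cell that held a given RNA is unknown. In such material fewer cells of a type and less RNA per cell cannot be told apart.

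EAE is a model of multiple sclerosis in which T cells raised against myelin enter the central nervous system. Interferon-gamma from such cells acts on many cell types, which then make class I and class II molecules of the major histocompatibility complex (MHC) and interferon-induced GTPases. Class I molecules show peptides from inside the cell to CD8+ T cells, class II molecules show peptides taken up from outside to CD4+ T cells. Cortical neurons draw most of their ATP from oxidative phosphorylation, and their firing is set by voltage-gated channels and by receptors for glutamate and GABA.

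Total counts ranged from 66155142 to 86691316 in EAE libraries, against 83664876 to 98433383 in control libraries, and were lower in EAE mice (exact permutation test within sexes, two-sided, p = 0.000227). Values below are CPM, counts relative to the library total with TMM scaling, for which 3 counts in a library came to between 0.0305 and 0.044 CPM. Neuronal genes were abundant. Snap25, a protein of vesicle fusion, had means of 5596 CPM in EAE mice and 5099 CPM in control mice, and all 16 neuron markers had counts in every library. Markers of other cells were present as well. Mbp of myelin had means of 4047 and 4001 CPM in EAE and control mice, and the astrocyte transporter Slc1a2 had 2641 and 2816 CPM. Rpl22, whose tagged copy carries the pull-down, had 58.6 CPM in EAE mice, against 73.4 CPM in control mice (log2 fold change -0.32, edgeR adjusted p = 0.008), and endogenous Eno2 was not called (-0.14). The first principal component of 13558 genes held 62.1% of the variance. It ran between -8.32 and 39.8 in EAE libraries, against -60.2 to -1.90 in control libraries, and the overlap came from female EAE 1. Male control 4 and female control 2 lay farthest out among the controls.

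A large part of the measured genes passed the test. Of the 20872 genes, 7842 (37.6%) were called at a false discovery rate under 0.1 and a log2 fold change beyond 0.25, 3907 (18.7%) higher and 3935 (18.9%) lower in EAE mice, by edgeR's quasi-likelihood test with Benjamini-Hochberg adjustment over all genes fitted. Without adjustment, 9905 genes (47.5%) had a p under 0.05. Most changes were moderate. The median log2 fold change was 0.50 among genes called higher and -0.45 among those called lower, 452 genes rose by more than 1 and 130 fell by more than 1 on the log2 scale. The smallest adjusted p was 9.78e-05, for Igha. All EAE libraries lay above all control libraries for 140 genes (0.671%) and below all of them for 157 genes (0.752%). Asked within each sex instead, the libraries separated in the same direction in males and in females for 597 genes (2.86%), 269 higher (1.29%) and 328 lower (1.57%). The 297 genes without overlap over all libraries (1.42%) became 292 to 829 when a library was left out, over 1.5 times as many without female EAE 1 (829), female EAE 5 (447), male EAE 3 (496), female control 1 (566), female control 3 (469), female control 4 (474) or male control 2 (602). With fewer libraries separation is easier, and only shifts in scaling or filter can lower this count, so its rises were largely fixed in advance. The count of calls was 5530 without male control 4 and female control 2, and 3900 with 1 surrogate variable, a factor estimated from the counts themselves. In females alone 35 genes were called, while 3509 had an unadjusted p under 0.05, and in males alone 8385 were called. Of 74 called genes named by the rule given below, 59 lost the call in females alone, and this is not repeated for each gene.

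**Figure D1:**
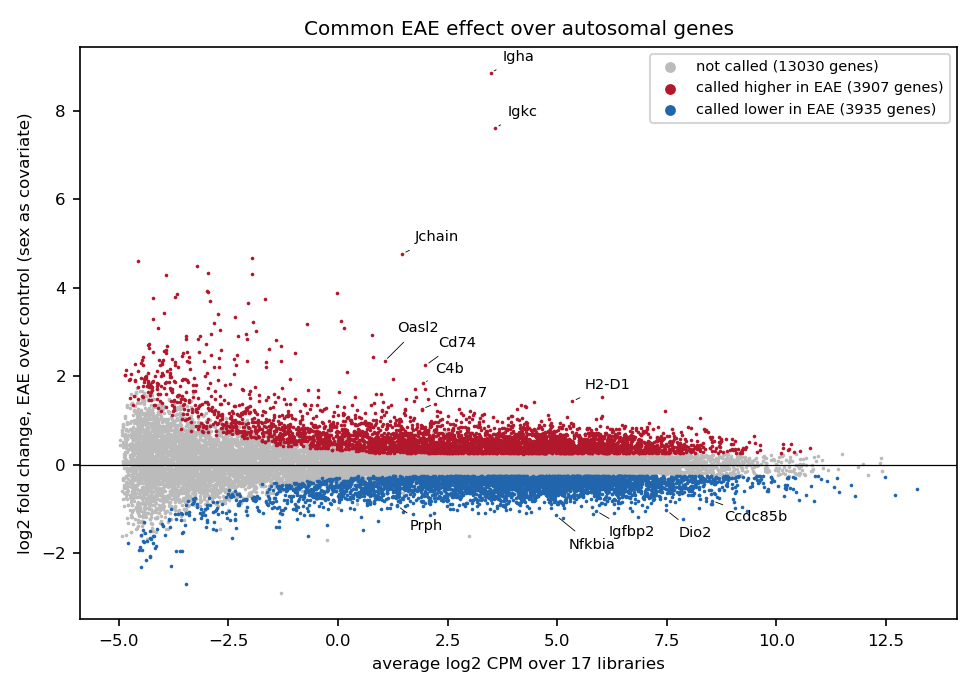
Each point is an autosomal gene, with its average log2 CPM over 17 libraries on the horizontal axis and its log2 fold change, EAE over control with sex as covariate, on the vertical axis. Red points are the 3907 genes called higher and blue points the 3935 called lower in EAE mice, and Igha and Igkc stand far above the rest at 8.85 and 7.61.

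**Figure D2:**
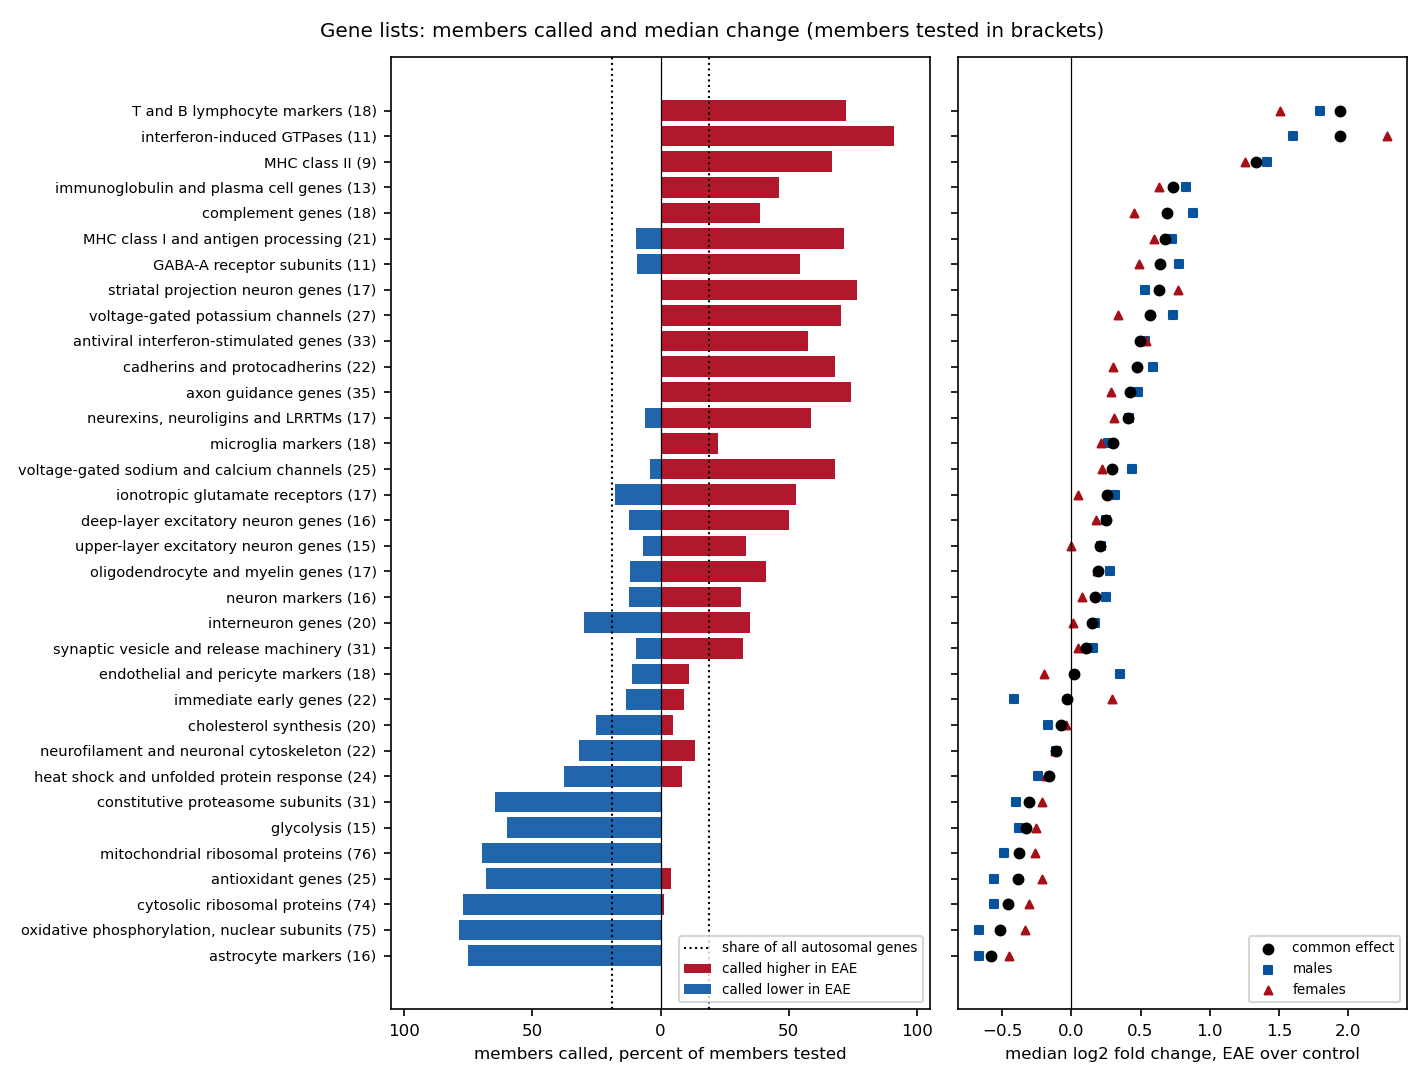
For 34 gene lists, ordered by median and with the number of members tested in brackets, the left panel shows the percent of members called higher (red, to the right) and lower (blue, to the left) in EAE mice, with dotted lines at 18.7% and 18.9%, the shares over all autosomal genes. The right panel shows the median log2 fold change, EAE over control, for both sexes together (circles), males (squares) and females (triangles), and runs from 1.94 for T and B lymphocyte markers and for interferon-induced GTPases to -0.58 for astrocyte markers.

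Genes of antigen presentation were higher in EAE mice. Of 21 class I and antigen processing genes 15 rose and 2 fell, with a median log2 fold change of 0.68, and of 9 class II genes 6 rose and none fell, with a median of 1.34, against a median of 0.01 over all autosomal genes. H2-D1 (ENSMUSG00000073411, chromosome 17 of GRCm38 from 35262730 to 35267499), the heavy chain of a classical class I molecule, had 34.2, 63.5 and 98.6 CPM in EAE mice, as the lowest, median and highest library, against 19, 20.8 and 25.01 CPM in control mice. Every EAE library lay above every control library, with male EAE 3 the highest and male EAE 4 and 5 the lowest of the EAE group (log2 fold change 1.43 ± 0.18, standard error, adjusted p = 0.000669 from edgeR). B2m, the light chain shared by class I molecules, rose by 0.68 and H2-K1, the other classical heavy chain, by 0.81. Class I genes are alike in sequence, and how reads were shared among them is uncertain. H2-T23, a nonclassical class I gene, had 9.38 to 15.5 CPM in EAE libraries, against 6.15 to 9.07 CPM in control libraries (0.72 ± 0.10, adjusted p = 0.000845). Tap1, which carries peptides into the endoplasmic reticulum, and Nlrc5, the transactivator of class I genes, rose by 1.04 and 2.33.

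The proteasome genes on the class I list did not move together. Psmb8 and Psmb9, inducible catalytic subunits of the immunoproteasome, rose by 1.58 and 1.68. Psmb10, the remaining inducible subunit, fell to a median of 35.5 CPM in EAE mice, against 50.2 CPM in control mice (log2 fold change -0.56 ± 0.11, edgeR adjusted p = 0.00186), and Psme1 of the proteasome activator fell by 0.44. The libraries overlapped at their edges, at 28.2 to 46.5 CPM in EAE mice and 44.5 to 69.0 CPM in control mice.

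Class II genes were measured at lower levels. Cd74 (chromosome 18, 60803848 to 60812652), the invariant chain that fills the class II groove until peptides are loaded, had 2.44, 5.98 and 14.1 CPM in EAE mice, against 0.993, 1.34 and 2.18 CPM in control mice. The groups did not overlap, and male EAE 3 was again the highest library (log2 fold change 2.24 ± 0.33, adjusted p = 0.00116 from edgeR). H2-Ab1, a class II beta chain, had 40 to 283 counts in EAE libraries, against 8 to 32 counts in control libraries, also without overlap (3.09 ± 0.37, adjusted p = 0.000576). Ciita, the transactivator of class II genes, was not called (0.08), nor was the peptide loading gene H2-DMa (0.00).

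Genes induced by interferons were higher in EAE mice. Of 11 interferon-induced GTPases 10 rose and none fell (median 1.94), and of 33 antiviral interferon-stimulated genes 19 rose and none fell (median 0.49). Iigp1, a GTPase that attacks vacuoles of parasites, had 0.166, 1.35 and 5.16 CPM in EAE mice, against 0.0221, 0.137 and 0.244 CPM in control mice (log2 fold change 3.87 ± 0.61, edgeR adjusted p = 0.00144). Only male EAE 4 lay within the range of the control libraries. Oasl2 (chromosome 5, 114896936 to 114912234), of the oligoadenylate synthetase family, had 1.02, 2.90 and 8.59 CPM in EAE mice, against 0.483, 0.646 and 0.854 CPM in control mice, without overlap (2.34 ± 0.37, adjusted p = 0.00144). Cmpk2, an interferon-inducible nucleotide kinase of mitochondria, showed a small change. It was named for a small p among genes separated within each sex, a choice that favours little spread. It had 38.2 to 47.0 CPM in EAE libraries, against 24.9 to 34.3 CPM in control libraries (0.52 ± 0.07, adjusted p = 0.000669). The transcription factors Irf1, at 0.26, and Irf7, at 0.34, were not called. With library depth as a further covariate 9 of the 33 antiviral genes were called higher and 2 lower. Depth itself was lower in EAE mice, so this covariate cannot be fully told apart from EAE, here and below. Without female EAE 1 there were 2 lower calls, and 1 without male EAE 3 or female control 1.

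The stretches upstream of some of these genes are shown because they hold the sequences through which the interferon response and the regulation of MHC genes are known to act. Windows of 250 bases before the start of transcription were taken from RefSeq (GRCm38.p6), 32851 in all, and matched by symbol to 13416 of the autosomal genes tested. The core of the interferon-stimulated response element, searched on either strand as GAAA, 2 bases of any kind and GAAA, was in 978 windows (2.98%) and in 415 of the matched genes (3.09%). Of 29 members of the interferon lists called higher 21 had a window, and 13 of these held the core (61.9%), as did 4 of 10 members that were not called (40.0%). The Y box, searched as CTGATTGG on either strand, was in 1258 windows (3.83%), in 772 of the matched genes (5.75%), in 9 of 16 class I and II genes called higher that had a window (56.2%) and in 0 of the 7 others. None of the windows printed holds both motifs, and matches of the response element overlap each other in Isg15. The RefSeq start of H2-D1 lies within the gene as GENCODE gives it. A match describes the letters only. Each window is given 5′ to 3′ along the gene, ending at the base before the start, with the matches in capitals.
Isg15 (chr4:156200819-156201068, minus strand): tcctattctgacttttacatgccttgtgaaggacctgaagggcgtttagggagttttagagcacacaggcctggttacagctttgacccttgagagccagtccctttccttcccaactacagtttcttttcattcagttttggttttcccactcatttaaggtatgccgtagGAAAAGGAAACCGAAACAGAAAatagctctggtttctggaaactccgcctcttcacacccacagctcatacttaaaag
Igtp (chr11:58199306-58199555, plus strand): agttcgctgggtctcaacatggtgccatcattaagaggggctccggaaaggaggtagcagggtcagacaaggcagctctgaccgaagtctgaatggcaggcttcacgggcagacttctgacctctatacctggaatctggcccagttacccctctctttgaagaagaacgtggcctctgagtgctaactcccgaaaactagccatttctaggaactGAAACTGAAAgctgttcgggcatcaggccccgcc
B2m (chr2:122147437-122147686, plus strand): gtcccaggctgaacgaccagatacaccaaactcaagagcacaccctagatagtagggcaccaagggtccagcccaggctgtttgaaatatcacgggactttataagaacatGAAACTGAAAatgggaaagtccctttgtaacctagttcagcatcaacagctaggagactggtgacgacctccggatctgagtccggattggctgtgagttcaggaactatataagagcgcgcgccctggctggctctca
H2-D1 (chr17:35262844-35263093, plus strand): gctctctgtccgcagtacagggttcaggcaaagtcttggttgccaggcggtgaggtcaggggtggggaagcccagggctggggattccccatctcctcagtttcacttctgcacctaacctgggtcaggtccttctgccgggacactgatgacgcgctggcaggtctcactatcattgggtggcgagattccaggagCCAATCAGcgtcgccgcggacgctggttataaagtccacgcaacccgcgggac
H2-Aa (chr17:34287824-34288073, minus strand): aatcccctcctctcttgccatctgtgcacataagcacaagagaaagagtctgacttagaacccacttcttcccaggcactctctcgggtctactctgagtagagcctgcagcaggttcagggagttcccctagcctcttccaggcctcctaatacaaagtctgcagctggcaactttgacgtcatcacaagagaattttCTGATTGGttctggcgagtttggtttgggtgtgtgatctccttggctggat
The response element core lay 78, 72 and 66 bases before the start in Isg15, a ubiquitin-like protein, 34 bases before it in the GTPase gene Igtp and 139 bases before it in B2m. The Y box began 53 bases before the start in H2-D1, where it is read on the opposite strand, and 51 bases before it in H2-Aa. In EAE and control mice these genes averaged 1.59 and 0.81 CPM (Isg15), 11.4 and 5.22 CPM (Igtp), 87.7 and 55.4 CPM (B2m), 57.7 and 21.5 CPM (H2-D1) and 1.80 and 0.188 CPM (H2-Aa), and all 5 were called higher.

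**Figure D3:**
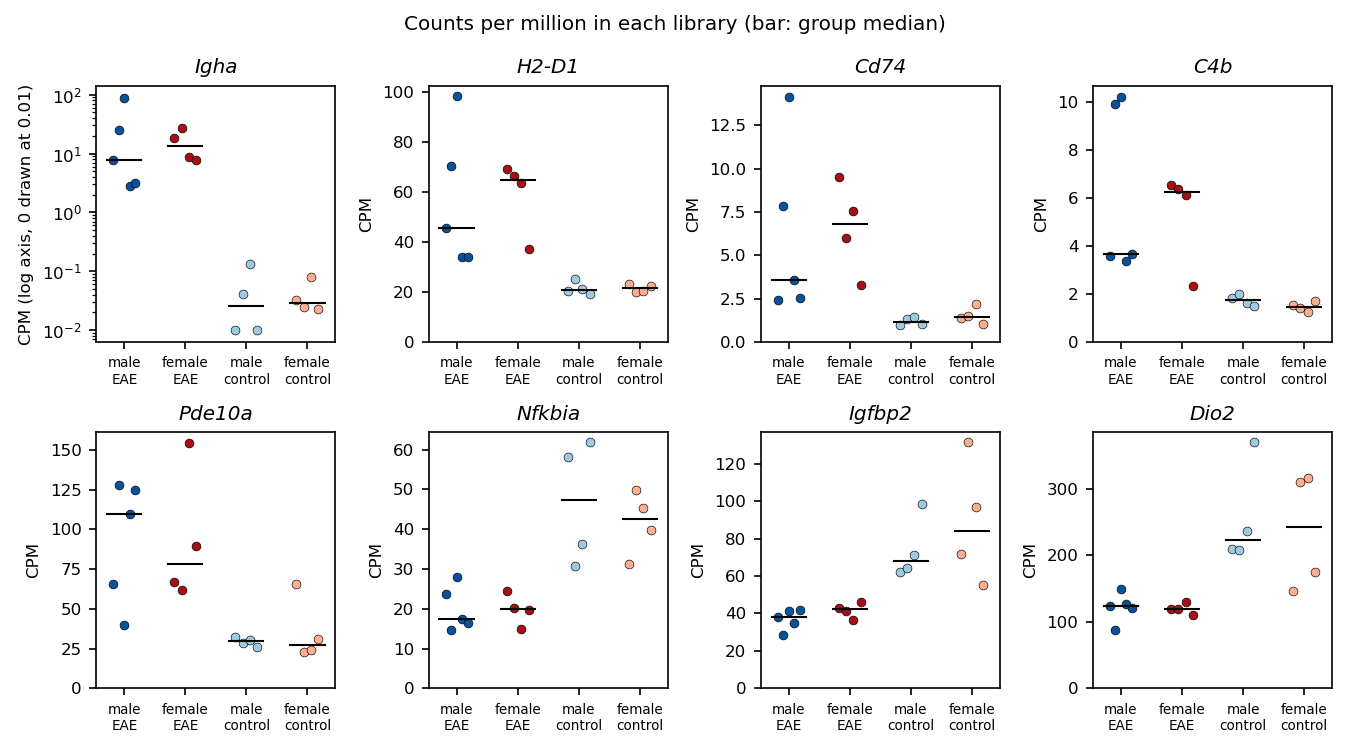
Each panel shows the CPM of a gene in every library, with male EAE, female EAE, male control and female control mice from left to right and a bar at each group's median. Igha has a log axis on which 2 control libraries at 0 are drawn at 0.01, and the other axes start at 0. For Igha, H2-D1, Cd74, C4b, Nfkbia and Igfbp2 no EAE library lies within the range of the controls.

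Antibody genes showed the largest rises. Igha (ENSMUSG00000095079, chromosome 12, 113254830 to 113260236), the constant region of immunoglobulin A heavy chains, had 200 to 6872 counts in EAE libraries, against 0 to 12 counts in control libraries. In CPM this was 2.77, 8.87 and 89.0 in EAE mice, against 0, 0.0287 and 0.133 in control mice. All EAE libraries were far above the controls, male EAE 3 stood highest, and 2 controls were at 0 (log2 fold change 8.85 ± 0.89, adjusted p = 9.78e-05 from edgeR). Igkc, the constant region of kappa light chains, and Jchain, which joins antibody units, rose by 7.61 and 4.76, also without overlap. In all, 6 of 13 immunoglobulin and plasma cell genes rose and none fell. Ighm of immunoglobulin M was not called, at means of 72.6 CPM in EAE mice and 73.7 CPM in control mice. The constant region genes are near-identical in part, so how reads were shared among them is uncertain.

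Markers of lymphocytes moved with these genes. Of 18 T and B lymphocyte markers 13 rose and none fell (median 1.94), and their summed level ran between 29.0 and 56.8 CPM in EAE libraries, against 15.2 to 43.1 CPM in control libraries. Cd3e, a chain of the T cell receptor complex, had 4 to 108 counts in EAE libraries, against 2 to 8 counts in control libraries (log2 fold change 3.23 ± 0.57, adjusted p = 0.00159 from edgeR). Between 0 and 2 of the 18 markers had no count in an EAE library, against 1 to 5 in a control library. With depth as a covariate 4 of the 18 markers were called higher and 1 lower, and without male EAE 3 and female EAE 1, a choice made after seeing the data, 9 were called higher. The part of lymphocyte RNA in the rises of the MHC, interferon and antibody genes was not tested.

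Complement genes were higher in part. Of 18 genes 7 rose and none fell (median 0.69), among them C4b and Serping1, an inhibitor of C1. Without single libraries the count ran between 6 and 11, the highest without female control 3, and with depth as a covariate the median was 0.04. C4b (chromosome 17, 34728380 to 34743882), the component that opens the classical pathway after C1, had 2.32, 6.11 and 10.2 CPM in EAE mice, against 1.25, 1.58 and 2.004 CPM in control mice, without overlap (log2 fold change 1.84 ± 0.25, adjusted p = 0.000845 from edgeR). Female EAE 5 was the lowest EAE library, and C4a, which is nearly identical in sequence, was not called (0.26). The chains of C1q, made by microglia, had log2 fold changes between 0.66 and 0.74 and were not called. Of 18 microglia markers 4 (22.2%) rose, near the 18.7% over all autosomal genes, led by Lyz2 of lysosomes and phagocytes (2.44 ± 0.37, adjusted p = 0.00143), and none fell. Summed over the 18 markers the level ran between 56.2 and 120.5 CPM in EAE libraries, against 62.7 to 90.5 CPM in control libraries. The homeostatic markers P2ry12 and Tmem119 were not called, at means of 1.63 and 2.48 CPM in EAE mice and 1.34 and 1.92 CPM in control mice. Without female EAE 1 a single microglia marker was called lower. The microglia median of 0.30 turned to -0.12 without female EAE 1 and to -0.55 with depth as a covariate, where 1 marker was called higher and 4 lower.

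Astrocyte markers were lower in EAE mice. Of 16 markers 12 fell and none rose (median -0.58), and their summed level ran between 5635 and 7312 CPM in EAE libraries, against 5816 to 11240 CPM in control libraries. S100b, a calcium-binding protein, fell by 0.99 and Aldoc, the brain aldolase, by 0.83. Fgfr3, a receptor of fibroblast growth factors, had 81.1, 111 and 145 CPM in EAE mice, against 132, 166 and 198 CPM in control mice. These ranges overlapped over all libraries and not within either sex (log2 fold change -0.58 ± 0.10, adjusted p = 0.00155 from edgeR). Gfap, the intermediate filament of reactive astrocytes, was not called (-0.05), at means of 329.6 CPM in EAE mice and 336.2 CPM in control mice. The part of astrocyte RNA in the falls described below was not tested.

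Markers of myelin and vessels had medians nearer 0. Of 17 oligodendrocyte and myelin genes 7 rose and 2 fell (median 0.19), but 1 rose and 3 fell with depth as a covariate, and 4 rose without male EAE 3 and female EAE 1. Ugt8a, which makes galactosylceramide of myelin, had 15.6 to 29.6 CPM in EAE libraries, against 9.66 to 17.1 CPM in control libraries (log2 fold change 0.84 ± 0.14, adjusted p = 0.00144 from edgeR), while the lineage factors Olig1 and Olig2 fell by 0.48 and 0.31, the call of Olig1 being lost with the surrogate variable and in females alone. Of 18 endothelial and pericyte markers 2 (11.1%) rose, Kcnj8 and Cldn5, and 2 (11.1%) fell, Egfl7 and Pdgfrb. Over all autosomal genes 18.7% rose and 18.9% fell. The rises became 5 without female control 2, and 1 without female EAE 1, male EAE 4, male EAE 5, female control 3, female control 4, male control 1, male control 3 or male control 4, and 1 fall was left without male control 2.

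Among all genes with separated libraries, the largest falls included regulators of signalling and metabolism. Genes were named for this from 432 called genes with an average log2 CPM above 1 whose EAE and control libraries did not overlap within either sex, 181 higher and 251 lower. Nfkbia (chromosome 12, 55489410 to 55492647), the inhibitor that holds NF-kappa-B in the cytoplasm and is itself a target of that factor, had 14.7, 19.8 and 28.01 CPM in EAE mice, against 30.8, 42.6 and 61.9 CPM in control mice. No libraries overlapped (log2 fold change -1.15 ± 0.16, adjusted p = 0.000845 from edgeR). Male EAE 3, highest for the interferon, MHC and immunoglobulin lists, was also the EAE library with the most Nfkbia. Dio2 (chromosome 12, 90724552 to 90738438), the deiodinase that makes active thyroid hormone and is known from astrocytes, had 88.1, 120 and 149.7 CPM in EAE mice, against 146, 223 and 370.5 CPM in control mice. Its EAE libraries lay close together, the control libraries spread widely, and female control 1 lay within the EAE range (-1.03 ± 0.15, adjusted p = 0.00126).

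Igfbp2, which binds insulin-like growth factors, had 28.5, 41.3 and 46.4 CPM in EAE mice, against 55.2, 71.6 and 132 CPM in control mice, without overlap (log2 fold change -1.04 ± 0.14, adjusted p = 0.000845 from edgeR). Ppp1r3g, which directs protein phosphatase to glycogen, fell by 1.12, and Lfng, a glycosyltransferase that tunes Notch receptors, by 0.78. Prph, the intermediate filament peripherin, had 1.42 to 2.18 CPM in EAE libraries, against 2.69 to 4.33 CPM in control libraries (-0.93 ± 0.12, adjusted p = 0.000845), and Kirrel2, an adhesion protein, fell by 0.90. The noncoding genes AW047730 and AI849053 fell by 1.18 and 1.09. They overlap on opposite strands of chromosome 3, and whether counting used strand is not given in the sources used here, so their reads cannot be told apart. Rpl34-ps1, a pseudogene copy of a ribosomal protein gene, fell by 0.86 and Ccdc85b, a coiled-coil protein, by 0.81.

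Rises outside the immune lists included receptors and channels. Trpc1, a cation channel subunit, had 3.94, 6.30 and 9.70 CPM in EAE mice, against 0.900, 2.88 and 3.95 CPM in control mice. The ranges met only at their edges, with female EAE 5 at 3.94 and male control 2 at 3.95 (log2 fold change 1.38 ± 0.26, adjusted p = 0.00169 from edgeR). Chrna7, the alpha7 subunit of nicotinic acetylcholine receptors, had 3.31 to 6.89 CPM in EAE libraries, against 0.966 to 2.91 CPM in control libraries (1.25 ± 0.22, adjusted p = 0.00159). Acvr1c, a receptor of the TGF-beta family, rose by 1.34. Wdr92, a factor in the assembly of dynein, was named by the same rule as Cmpk2 and rose less. It had 35.1 to 53.0 CPM in EAE libraries, against 17.1 to 28.6 CPM in control libraries (0.88 ± 0.11, adjusted p = 0.000669). Elmod1, an activator of small GTPases, rose by 0.76, and Tmem196, a membrane protein, by 1.11.

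Voltage-gated channels were mostly called higher. Of 27 potassium channel genes 19 rose and none fell (median 0.57), with a summed level of 2257 to 3530 CPM in EAE libraries, against 1712 to 2645 CPM in control libraries. Kcna1, a channel of axons, had 203 to 328 CPM in EAE libraries, against 140 to 207 CPM in control libraries (log2 fold change 0.57 ± 0.10, adjusted p = 0.0016 from edgeR). Of 25 sodium, calcium and pacemaker channel genes 17 (68%) rose and 1 (4%) fell (median 0.29). Over all autosomal genes 18.7% rose and 18.9% fell. Cacna1e, the pore of R-type calcium channels, had 30.5 to 67.7 CPM in EAE libraries, against 19.99 to 33.0 CPM in control libraries (0.87 ± 0.15, adjusted p = 0.00147). With an offset for gene length 8 of the 25 genes were called higher.

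Transmitter receptor genes were more often called higher than lower. Of 11 GABA-A receptor genes 6 (54.5%) rose and 1 (9.09%) fell (median 0.64). Gabrb2, a beta subunit of synaptic receptors, rose by 1.42, and Gabrg3, a gamma subunit, had 20.5 to 34.4 CPM in EAE libraries, against 14.2 to 22.2 CPM in control libraries (log2 fold change 0.75 ± 0.11, adjusted p = 0.00143 from edgeR). Gabrb1 fell by 0.32, a call lost with the surrogate variable, in females alone, and without male control 4 and female control 2. Of 17 ionotropic glutamate receptor genes 9 (52.9%) rose and 3 (17.6%) fell (median 0.26). Over all autosomal genes 18.7% rose and 18.9% fell, so the share of falls on this list was near that of all genes. Grik3, a kainate receptor subunit, had 152 to 210.3 CPM in EAE libraries, against 80.0 to 147 CPM in control libraries, without overlap (0.53 ± 0.11, adjusted p = 0.0018). Grin2c, an NMDA receptor subunit, fell to a median of 58.3 CPM in EAE mice, against 89.9 CPM in control mice (-0.62 ± 0.11, adjusted p = 0.00159). With the length offset the glutamate receptor median was 0.02, with 4 higher and 3 lower.

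Adhesion and guidance genes were called higher far more often than lower. Of 22 cadherins and protocadherins 15 rose and none fell (median 0.48), of 17 neurexins, neuroligins and related genes 10 rose and 1 fell (median 0.41), and of 35 axon guidance genes 26 rose and none fell (median 0.42). Sema3e, a secreted semaphorin, had 9.24, 13.2 and 16.01 CPM in EAE mice, against 4.66, 6.15 and 9.35 CPM in control mice. Only the edges overlapped (log2 fold change 0.98 ± 0.14, adjusted p = 0.000845 from edgeR). Lrrtm2, an organiser of excitatory synapses, had 39.3 to 61.8 CPM in EAE libraries, against 20.5 to 38.9 CPM in control libraries (0.68 ± 0.13, adjusted p = 0.00174), and Cdh9, a type II cadherin, rose by 0.88. The guidance genes called higher were 17 with the length offset and 10 with the surrogate variable, under which 8 cadherins (median 0.22) and 4 genes of synaptic vesicles were called higher. Single lower calls appeared in guidance genes without female EAE 3, male EAE 3, male control 1 or male control 2, and in cadherins without female EAE 5, female control 4 or male control 2, and the fall on the neurexin list was lost without male control 4. Of 31 genes of synaptic vesicles and release 10 (32.3%) rose and 3 (9.68%) fell (median 0.11), against 18.7% and 18.9% of all autosomal genes. Their median exon length was 7362 bases. Of protein-coding autosomal genes of 6457 to 7937 bases above a log2 CPM of 1, 28.8% were called higher and 12.7% lower. Slc17a6, a vesicular glutamate transporter, rose by 0.70, and Stx1a, a syntaxin of the release machinery, had 477 to 647 CPM in EAE libraries, against 653 to 753 CPM in control libraries (-0.34 ± 0.07, adjusted p = 0.00181). The Stx1a call was lost with the length or GC offset and in females alone, and with the length offset 6 vesicle genes were called higher and 1 lower.

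Genes that mark classes of neurons differed from class to class. Of 17 genes typical of striatal projection neurons 13 rose and none fell (median 0.63), with summed levels of 2130 to 4482 CPM in EAE libraries, against 1974 to 3760 CPM in control libraries. Pde10a, a phosphodiesterase of the striatum, had 39.7, 89.3 and 154 CPM in EAE mice, against 23.01, 29.6 and 65.5 CPM in control mice. Male EAE 3 was low among EAE libraries and female control 1 high among controls, and these overlapped (log2 fold change 1.53 ± 0.25, adjusted p = 0.00144 from edgeR). The dopamine receptor genes Drd1 and Drd2 each rose by 0.99. How much striatal tissue each cortex sample held was not tested.

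Of 15 genes of upper cortical layers 5 (33.3%) rose and 1 (6.67%) fell (median 0.21), at a median exon length of 7409 bases. Of protein-coding autosomal genes of 6457 to 7937 bases above a log2 CPM of 1, 28.8% were called higher and 12.7% lower. Of 16 genes of deep layers 8 (50%) rose and 2 (12.5%) fell (median 0.25), against 18.7% and 18.9% of all autosomal genes. Tbr1, a factor of corticothalamic neurons, had 226 to 304.5 CPM in EAE libraries, against 128 to 227 CPM in control libraries (log2 fold change 0.49 ± 0.09, adjusted p = 0.00167 from edgeR). Lhx2, a homeodomain factor, fell by 0.45, and Cplx3, a complexin, by 0.38. Without male control 4 a single deep-layer gene was called lower, the Cplx3 call was lost with the surrogate variable and in females alone, and 2 upper-layer genes rose and 2 fell with the surrogate variable. Interneuron genes ran both ways, 7 higher and 6 lower of 20. Cnr1, the cannabinoid receptor of cholecystokinin cells, had 53.1, 82.9 and 117 CPM in EAE mice, against 23.7, 40.6 and 62.5 CPM in control mice (1.06 ± 0.19, adjusted p = 0.00159), and the GABA-making enzyme Gad2 rose by 0.71. The markers Pvalb, Sst, Npy and Calb2 fell. Pvalb, the calcium buffer of fast-spiking cells, had 29.8, 45.6 and 58.6 CPM in EAE mice, against 51.2, 65.7 and 94.2 CPM in control mice (-0.62 ± 0.12, adjusted p = 0.00179). The exon length of Pvalb is 1041 bases and that of Cnr1 6444 bases, and with the length offset 5 interneuron genes were called higher and 3 lower.

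Of the 16 neuron markers 5 (31.2%) rose and 2 (12.5%) fell (median 0.17), against 18.7% and 18.9% of all autosomal genes. Their median exon length was 5652 bases. Of protein-coding autosomal genes of 5484 to 6454 bases above a log2 CPM of 1, 25.7% were called higher and 17.4% lower. Rbfox3, which encodes the nuclear antigen NeuN, had 774, 1027 and 1161 CPM in EAE mice, against 1196, 1432 and 1668 CPM in control mice. No library overlapped, and female EAE 4 was the lowest (log2 fold change -0.51 ± 0.09, adjusted p = 0.0016 from edgeR). Nrgn, a calmodulin-binding protein of dendrites, fell by 0.55, while Eno2, Tubb3, Thy1, Snap25, Map2, Nefl, Camk2a, Slc17a7 and Neurod6 were not called. Of 22 genes of neurofilaments and the cytoskeleton 3 rose and 7 fell, among them Map1b, a microtubule protein of growing axons (-0.62), and Dclk1, a microtubule-binding kinase (0.32). The Dclk1 call was lost with the length offset, with the surrogate variable and in females alone, and 1 cytoskeleton gene was called higher without female control 2 or male control 4. With the surrogate variable 0 cytoskeleton genes were called higher and 3 lower.

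Genes of energy supply were lower in EAE mice. Among 75 nuclear subunits of the respiratory chain and ATP synthase 59 fell and none rose (median -0.52), and of 76 mitochondrial ribosomal proteins 53 fell and none rose (median -0.38). Summed over the 75 genes the level ran between 5568 and 8535 CPM in EAE libraries, against 7998 to 13110 CPM in control libraries, with an overlap from female EAE 1. Ndufa2 of complex I had 34.3, 42.6 and 69.5 CPM in EAE mice, against 59.3, 75.6 and 137 CPM in control mice (log2 fold change -0.88 ± 0.17, edgeR adjusted p = 0.00169). Mrps26, of the small mitochondrial ribosomal subunit, had 64.0 to 91.9 CPM in EAE libraries, against 94.0 to 140 CPM in control libraries, without overlap (-0.54 ± 0.09, adjusted p = 0.00144). Uqcrc2 of complex III was not called (-0.02). Of 15 glycolysis genes 9 fell and none rose (1 without female control 4), with Pfkl, a phosphofructokinase, at 83.1 to 124 CPM in EAE libraries, against 122 to 166 CPM in control libraries (-0.44 ± 0.08, adjusted p = 0.0017). Gapdh, with many pseudogene copies, was counted at about 1 CPM in both groups, and its value is uncertain. With the surrogate variable 39 genes of oxidative phosphorylation, 28 of the mitochondrial ribosome and 5 of glycolysis were called lower, and with the length offset 44, 35 and 9. With the GC offset 6 glycolysis genes were called lower, and 1 was called higher with either offset. In females alone, where 35 genes were called in all, none of the genes on these lists was called lower. In males alone 62 genes of oxidative phosphorylation, 56 of the mitochondrial ribosome and 11 of glycolysis were called lower. The oxidative phosphorylation median was -0.67 in males and -0.33 in females.

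Genes of protein synthesis and breakdown were lower as well. Of 74 cytosolic ribosomal proteins 57 fell and 1 rose (median -0.46), and of 31 constitutive proteasome subunits 20 fell and none rose (median -0.30). Rpl32 had 17.6, 23.8 and 37.0 CPM in EAE mice, against 31.6, 42.0 and 71.3 CPM in control mice (log2 fold change -0.86 ± 0.16, edgeR adjusted p = 0.00164). The single rise, of Rps15a (0.29), was lost with the length or GC offset, with the surrogate variable, in females alone, and without male control 4 and female control 2. Ribosomal protein genes share reads with pseudogenes, so single values are uncertain. Psmd4, a ubiquitin receptor of the proteasome, had 52.4 to 92.4 CPM in EAE libraries, against 87.5 to 156 CPM in control libraries (-0.69 ± 0.13, adjusted p = 0.00164). With the length offset 36 of the ribosomal protein genes were called lower, and with the surrogate variable 33 of them and 8 of the proteasome genes. In females alone none of either list was called lower, against 56 and 23 in males alone.

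Of 25 antioxidant genes 17 fell and 1 rose (median -0.39). The metallothioneins, which bind zinc and copper, fell most, Mt2 by 1.24, Mt1 by 1.05 and Mt3 by 0.97. Prdx5, a mitochondrial peroxiredoxin, had 163 to 246 CPM in EAE libraries, against 227 to 363 CPM in control libraries (log2 fold change -0.46 ± 0.10, adjusted p = 0.00236 from edgeR), and Gclc, which starts glutathione synthesis, rose by 0.32. Of 24 heat shock and unfolded protein response genes 9 fell and 2 rose (median -0.16). Ddit3, the stress factor CHOP, had 36.0 to 67.3 CPM in EAE libraries, against 64.3 to 133 CPM in control libraries (-0.74 ± 0.14, adjusted p = 0.00178), and Dnajb9, a chaperone of the endoplasmic reticulum, rose by 0.43. With the surrogate variable 6 antioxidant genes (median -0.17) and 5 of folding stress were called lower, and the calls of Prdx5 and Gclc were lost. The Dnajb9 call was lost with the GC offset, and the calls of Prdx5, Gclc, Dnajb9 and Ddit3 in females alone. Of 20 cholesterol synthesis genes 5 (25%) fell, against 18.9% of all autosomal genes, with Mvk of the mevalonate pathway at -0.66, and 1 rose (median -0.08). That rise, of Hsd17b7 (0.26), was lost in 13 of 39 alternatives, 6 of them fits without a single library. Without female EAE 1 or male control 2, 2 cholesterol genes were called higher.

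**Figure D4:**
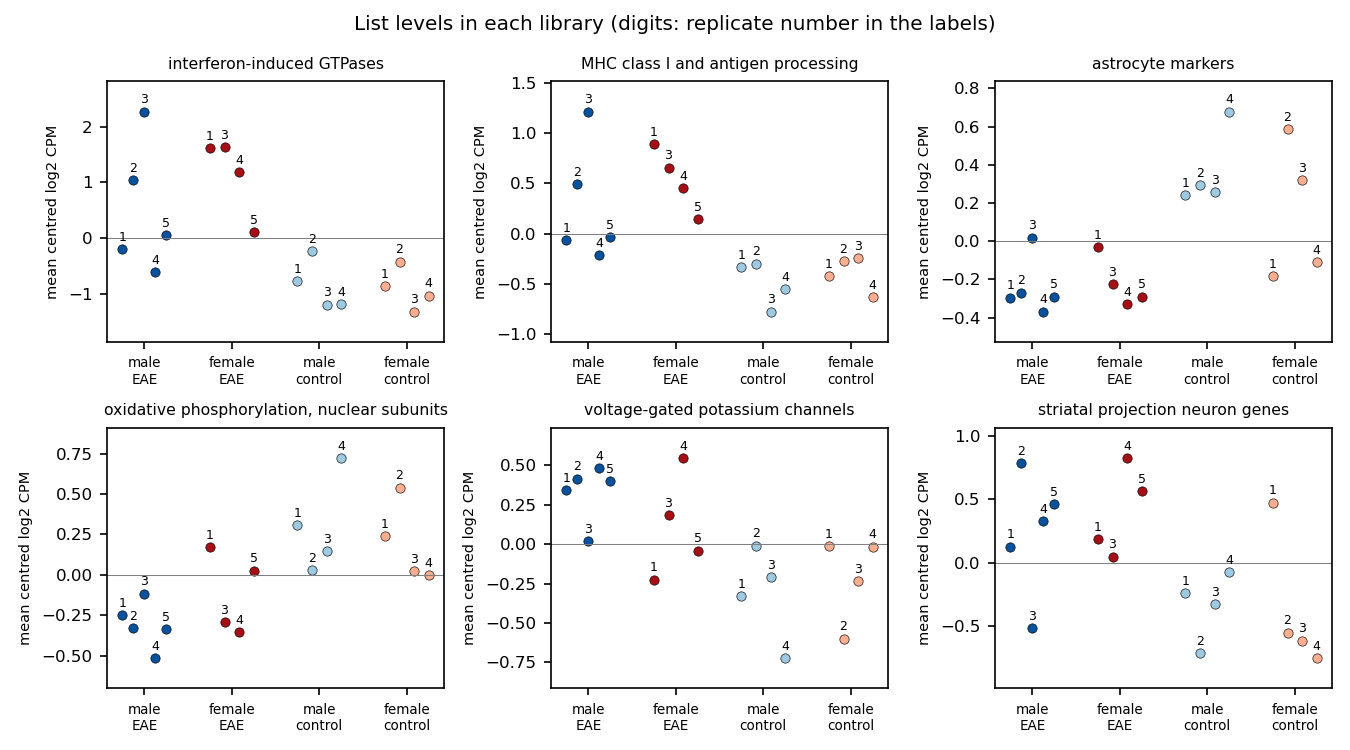
Each panel shows, for a gene list, the mean over its members of log2 CPM centred on the 17 libraries, with male EAE, female EAE, male control and female control mice from left to right and the replicate number of the labels above each point. Male EAE 3 is the highest library for interferon-induced GTPases and class I genes, and among male EAE mice it is the nearest to the controls for oxidative phosphorylation and potassium channels.

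By mean centred log2 CPM, male EAE 3 was the highest library for the interferon, class I and II, immunoglobulin and lymphocyte lists. In summed CPM of the lymphocyte markers it had 30.65, within a range of 29.02 to 56.75 in EAE libraries. Male EAE 3 was not the library farthest from the controls for oxidative phosphorylation or potassium channels. For interferon-induced GTPases the list level of male EAE 3 was 2.27, against -0.61 in male EAE 4, and the control libraries lay between -1.33 and -0.24. For oxidative phosphorylation male EAE 4 had -0.52 and male EAE 3 had -0.12, while the controls lay between 0.00 and 0.72. For potassium channels male EAE 4 had 0.48 and male EAE 3 had 0.02, with controls between -0.72 and -0.01. Female EAE 1 had 1.62 for the GTPases, 0.17 for oxidative phosphorylation and -0.22 for potassium channels.

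Long genes were more often called higher and short genes lower. The median exon length was 5131 bases in genes called higher, 2673 bases in genes called lower and 3333.5 bases in all autosomal genes, and the median GC content was 46.7%, 52.7% and 50%. Protein-coding autosomal genes above a log2 CPM of 1 were split into 10 bins of about equal size by exon length. In the shortest bin 5.08% were called higher and 61.8% lower, against 43.8% higher and 7.24% lower in the longest bin. The median log2 fold change was -0.36 in the shortest bin and 0.21 in the longest. The library medians of the shortest bin, centred per gene, ran between -0.40 and 0.10 in EAE libraries, against -0.02 to 0.53 in control libraries, with male control 4 the highest. List members had median exon lengths of 1801 bases for oxidative phosphorylation and 1806 bases for ribosomal proteins, against 5756 bases for potassium channels and 8778 bases for axon guidance. The part of length in the calls was tested only through the offset, under which 7274 genes were called, 4195 higher and 3079 lower, and 5799 of them were among the 7842.

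**Figure D5:**
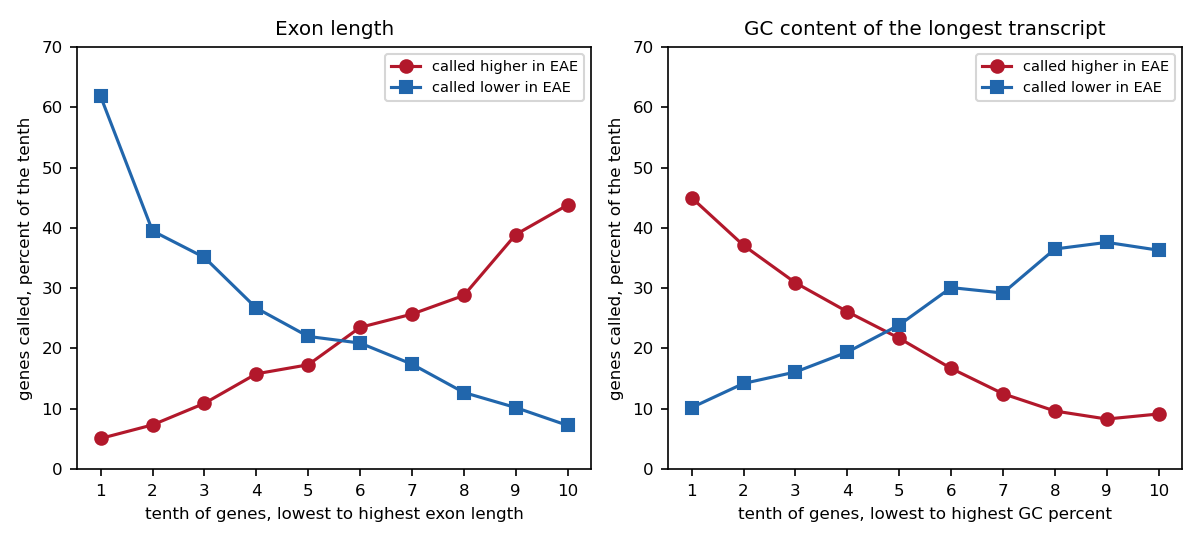
The percent of genes called higher (red circles) and lower (blue squares) in EAE mice is plotted for 10 bins. The bins hold protein-coding autosomal genes above a log2 CPM of 1. They are ordered from the lowest to the highest exon length (left) and GC content of the longest transcript (right). Calls of lower genes drop from 61.8% in the shortest bin to 7.24% in the longest, and calls of higher genes run the other way, 5.08% to 43.8%.

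No gene was called for a difference in the EAE effect between male and female mice. By edgeR's interaction test 0 of 20872 genes passed (smallest adjusted p = 0.468) and 880 (4.22%) had an unadjusted p under 0.05, while limma voom called 0 and DESeq2 called 3, Gadd45b, Junb and the predicted gene Gm10309, named after its value was seen. The genes called for the common effect had median log2 fold changes of 0.59 in males and 0.39 in females where called higher, and of -0.56 and -0.32 where called lower. They were chosen on these same libraries, so this is a description. Immediate early genes, which neurons switch on with activity, were mostly not called. Of 22 such genes 2 (9.09%) were higher and 3 (13.6%) lower, against 18.7% and 18.9% of all autosomal genes. Their median was -0.41 in males and 0.29 in females. Ier2, an immediate early gene, had 18.2, 12.7, 11.97, 12.8 and 13.8 CPM in male EAE mice, against 22.5, 38.2, 16.1 and 28.2 CPM in male control mice. It had 28.3, 17.2, 11.1 and 17.1 CPM in female EAE mice, against 10.3, 13.2, 13.04 and 14.1 CPM in female control mice. Most male EAE libraries were below the male controls, and most female EAE libraries above the female controls, with overlap in both sexes (log2 fold changes -0.92 and 0.54, difference adjusted p = 0.807 from edgeR). Sertad1, a transcriptional coregulator, had 19.9 to 28.4 CPM in male EAE mice, against 39.5 to 67.8 CPM in male control mice. The male groups did not overlap. In females, whose groups did, it had 22.7 to 32.7 CPM in EAE mice, against 27.6 to 36.0 CPM in control mice (difference adjusted p = 0.807). Egr3, another immediate early gene, rose in the common fit by 0.63 and Jund fell by 0.37, and both calls were lost in females alone and with the surrogate variable, that of Jund also with the length or GC offset. Only 1 immediate early gene was called higher without female EAE 4, female control 2, or any of male EAE 1, 2, 4 and 5 and male control 1 to 4.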

How the data were processed

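Cortex RNA pulled down with tagged ribosomes was sequenced in 17 libraries. After trimming, the authors mapped reads to mm10 and used QuasR for gene counts, deposited without normalization. The submitters' processing notes name bcl2fastq 2.17, FastQC and Trimmomatic. The annotation release and the strand setting are not given in the sources used here. Groups and sexes came from the labels.

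Genes with at least 1 count in at least 9 libraries were kept, as in the study. EdgeR 4.0.16 (R 4.3.3) fitted EAE with sex as covariate by its quasi-likelihood test with TMM normalization. The standard errors given are the absolute log2 fold change divided by the square root of that test's F statistic, and are approximate. Benjamini-Hochberg adjustment ran over 22242 genes. A call needed a false discovery rate under 0.1 and an absolute log2 fold change over 0.25. DESeq2 1.42.0, limma 3.58.1 and sva 3.50.0 served for alternatives. The others were other normalizations, filters, thresholds and covariates, offsets for gene length and GC content, each sex alone, and fits without single libraries. Names, positions and lengths came from GENCODE M21 (GRCm38). The script was tested on simulated data.

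The genes compared and the 34 lists were chosen with earlier results of these data known, so no list was given a test. Named genes were the 10 largest rises and 10 largest falls among called genes with an average log2 CPM above 1, a symbol other than Gm plus digits or ending in Rik, and no overlap of EAE and control libraries within either sex, the 6 next by p, the called member with the smallest p in each direction of each list, and the 4 with the smallest p for a difference between sexes. Other list members were named after their values were seen. Some genes that this rule names are not reported here. The sources used here do not say whether each library is 1 mouse, and p-values measure the spread between these libraries. The libraries carry no molecular identifiers, so a floor of 3 counts covers counting error only. Same-numbered EAE and control libraries of a sex were checked for pairing, and the numbers were not taken as a pairing. The check cannot exclude that some samples were paired.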

Additional observations from a re-analysis of the deposited data

Results flagged for a closer look

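Among 152 pairs of a named gene and a disease group checked for a single library that stood apart, 3 were found. Many of these genes were named for separated libraries or a small p, so this count cannot be set against a chance rate. Pde10a was at 65.5 CPM in female control 1, against 23.01 to 32.4 CPM in the other control libraries. Lhx2 was at 119.1 CPM in male EAE 2, against 156.9 to 185.5 CPM in the other EAE libraries. Dnajb9 was at 21.9 CPM in female EAE 1, against 28.6 to 36.2 CPM in the other EAE libraries.

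Ier5l, an immediate early response gene, moved in opposite directions without overlap in either sex, with log2 fold changes of -0.32 in males and 0.15 in females (unadjusted p = 0.000476 and adjusted p = 0.807 for the difference, from edgeR). It was the single gene with this pattern among autosomal genes with an average log2 CPM above 1. How many such genes chance gives was not tested.

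Outside the autosomes, 329 of 891 X-linked genes (36.9%) were called for the common effect, 210 higher and 119 lower, near the 37.6% over all autosomal genes. Tsc22d3, a leucine zipper protein induced by glucocorticoids, averaged 123 CPM in EAE mice and 262 CPM in control mice (log2 fold change -1.10, edgeR adjusted p = 0.00143). Of 30 genes of the mitochondrial genome 9 were called, all lower, among them mt-Nd4 of complex I at 261 CPM in EAE mice, against 453 CPM in control mice (-0.79, edgeR adjusted p = 0.0162). Over all autosomal genes 37.6% were called, 18.9% of them all lower and 18.7% higher. The edgeR adjusted p of the 9 ran from 0.0162 to 0.0936.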

How the results depend on the processing

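Of 74 named genes called, 59 lost the call in females alone. The number of genes called stayed within 1.5 times of 7842 under other normalizations, tools, filters and thresholds. It was 35 (29 higher, 6 lower) in females alone and 3900 (2028 higher, 1872 lower) with 1 surrogate variable, and 3734 of those 3900 were among the 7842. Without single libraries it ran between 6636 (without male control 4) and 8411 (without female EAE 1). Higher genes made up 49.8% of the calls, and 57.7% with upper quartile normalization or the length offset. The count of genes without overlap, 297, ran between 292 and 829 without single libraries, the highest without female EAE 1. Fewer libraries make separation easier, so rises in this count were largely fixed in advance. DESeq2 called 3 genes for a difference between the sexes, where edgeR and limma voom called 0. Medians near 0 changed sign often, that of endothelial markers (0.02) in 17 of 39 alternatives, with a range of -0.35 to 0.34, and that of immediate early genes (-0.04) in 9 of 39, with a range of -0.43 to 0.29. Directions also turned for the upper-layer median (-0.000327 in females alone, -0.0721 with the surrogate variable), the interneuron median (-0.0115 with the surrogate variable), the microglia median (-0.552 with depth as a covariate, -0.239 without male EAE 3 and female EAE 1, a choice made after seeing the data, and from -0.121, without female EAE 1, to 0.472, without female control 3) and Gadd45b (0.0183 in females alone). The cause was not tested. With depth as a covariate 9290 genes were called, 4570 higher and 4720 lower. The oxidative phosphorylation median was then -0.85, with 64 genes lower and none higher. The potassium channel median was 1.07, with 26 genes higher and none lower. Depth differed between the groups, so this fit cannot fully separate it from EAE. With the replicate number as a block within sex 6337 genes were called, 3100 higher and 3237 lower. Correlations of same-numbered EAE and control libraries ran from -0.545 to 0.527, and 5 of 14 libraries with a partner correlated best with their own number, so the numbers were not taken as a pairing.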
